A study of Mus musculus with 6 samples.

Results

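Immunity-related GTPases, the IRG family, were examined in mouse skin with and without alopecia areata. The genes were Igtp, Irgm1, Irgm2, Iigp1, Ifi47 and the related predicted genes Gm4951 and BC023105. Every probe set, that is, every group of short array probes designed against a transcript, whose only annotated symbol was one of these was taken. This gave 8 probe sets for 7 genes, out of 45101 probe sets and 18193 genes with a single-symbol probe set. The family was selected on its log2 difference between alopecic and unaffected skin, so its values in that comparison are a description and carry no test.

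The 6 mice were of the inbred strain C3H/HeJ, in which an autoimmune hair loss resembling human alopecia areata can arise without treatment. Affected alopecic skin came from 3 mice with the phenotype alopecia areata, and skin of 3 unaffected mice served as control, with 1 array for each mouse. The series title calls the disease spontaneous. The labels name no transgene or treatment and do not state the age of the mice or the area of skin sampled.

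IRG proteins are GTPases that mouse cells make in response to interferon gamma, a cytokine secreted mainly by T cells and natural killer (NK) cells. Effector members such as Iigp1 (also called Irga6) and Ifi47 (Irgd) gather on the vacuoles in which parasites such as Toxoplasma gondii live and help to break them open. Regulatory members, namely Irgm1, Irgm2 and Igtp (Irgm3), sit on the cell's own membranes and keep the effectors in an inactive state there. Promoters of interferon-induced genes are known to hold short DNA elements, among them the gamma-activated site (GAS) and the interferon-stimulated response element (ISRE), the latter bound by interferon regulatory factors.

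The members lie in clusters. In the RefSeq annotation of GRCm38.p6, Igtp and Irgm2 are neighbours on chromosome 11, with no protein-coding gene between them, and Gm12250 (Irgb10) lies on the other side of Igtp. Irgm1 and Ifi47 lie elsewhere on chromosome 11, with 7 protein-coding genes between them, among them Tgtp1 and Tgtp2.

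RefSeq promoter windows of GRCm38.p6, from 250 bases before to 50 bases after the annotated start, were found for 4 of the 7 genes, Igtp, Irgm1, Irgm2 and Ifi47. These come from the C57BL/6J reference, not from C3H/HeJ. They were searched on both strands for GAAANNGAAA, the core letters of an ISRE, and TTCNNNGAA, those of a GAS. The stretches around the ISRE letters are shown for Igtp, Irgm2 and Irgm1, the 3 members whose windows held an ISRE match. Each runs 5′ to 3′ on the strand of its gene and reaches 40 bases to either side of the first base of the ISRE match, and capitals mark the letters that match either motif.
Igtp, chr11:58199482-58199561, plus strand: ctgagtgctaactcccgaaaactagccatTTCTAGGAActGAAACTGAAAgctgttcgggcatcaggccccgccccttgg
Irgm2, chr11:58214873-58214952, plus strand: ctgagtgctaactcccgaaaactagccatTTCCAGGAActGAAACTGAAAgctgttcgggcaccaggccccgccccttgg
Irgm1, chr11:48871411-48871490, minus strand: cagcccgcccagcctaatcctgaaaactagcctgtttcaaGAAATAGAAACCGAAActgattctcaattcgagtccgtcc

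In Igtp and Irgm2 the GAS letters were followed after 2 bases by the ISRE letters. The ISRE match began 34 bases before the annotated start in Igtp and 64 bases before it in Irgm2. The 80 bases shown were identical between these neighbours at 78 positions. Irgm1 had 2 overlapping ISRE matches, the first of which began 30 bases before its start, and no GAS match. Set against Igtp without gaps and with the first ISRE matches in line, its stretch was identical at 25 of 80 positions. This count depends on which match is lined up. The second ISRE match of Irgm1 began 24 bases before its start, and an alignment on it was not made. Both stretches also hold gaaaactagcc, which the alignment used does not bring together. The count therefore does not say how alike the promoters of Irgm1 and Igtp are. The window of Ifi47 held neither set of letters, which says only that they are not in this window. Of 32851 promoter windows in the RefSeq table, 3.44% held the ISRE letters, 8.3% the GAS letters and 0.454% both. The matches lay at most 5 bases apart in 12 windows, or 0.0365%. Of these 12 windows, 5 belonged to IRG genes, namely Igtp, Irgm2, Gm12185, Tgtp1 and Tgtp2. The members and the other listed IRG genes had 12 windows in all. As near copies of each other, the stretches of Igtp and Irgm2 are not independent cases. Gm12185, Tgtp1 and Tgtp2 lie in the same cluster, and their windows were not compared with each other. The 5 windows are therefore not to be counted as independent. A match is a string of letters and no measured binding.

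All 8 probe sets were higher in each alopecic array than in each unaffected array. The deposited values are log2 values from RMA, a method that corrects background, brings the arrays to a common distribution and combines the probes of each set. Fold differences of dim probe sets are understated on this scale. Over the 7 genes, each at its brightest probe set, the log2 difference between alopecic and unaffected skin ran from 3.71 to 4.66, or from 13.1-fold to 25.4-fold higher. The median was 4.20, or 18.4-fold, where the median of all 18193 genes was -0.01. All 7 genes passed the threshold of the limma test over all genes as higher, which 0.264% of genes did, and in all 7 the groups did not overlap, as in 6.93% of genes. By probe set, this held for 8 of 8, and for 5.79% of all single-symbol probe sets. Because these values chose the members, nothing is read from these shares. Errors of the members' differences are standard errors (SE) from the limma fit over 34945 single-symbol probe sets, those of other genes come from the fit over 18193 genes, and errors of means are standard deviations (SD).

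**Figure D1:**
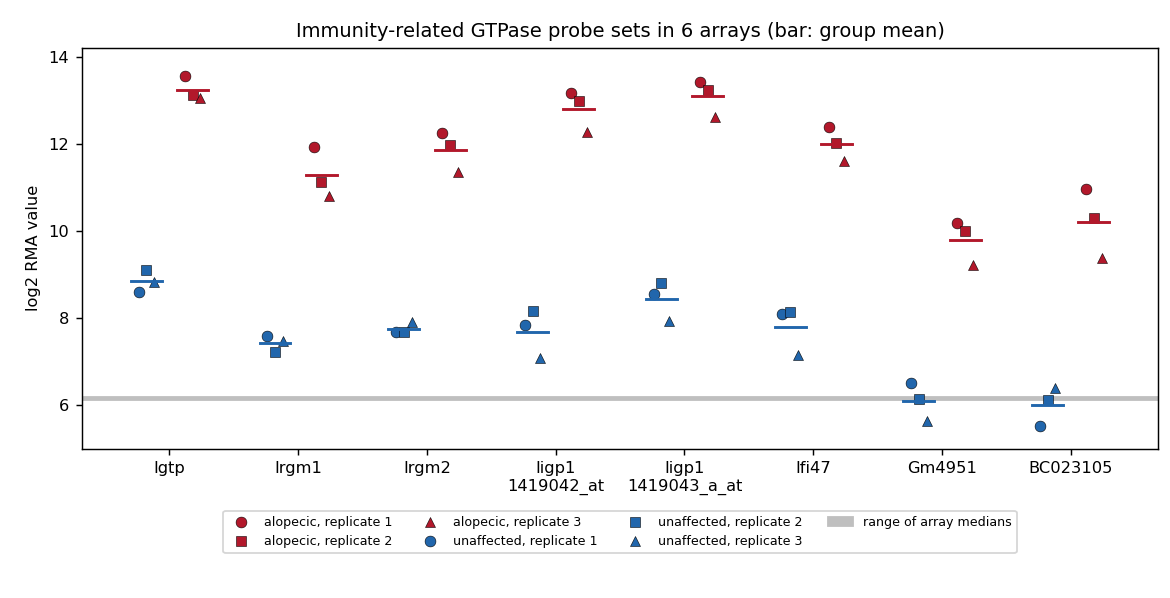
Log2 RMA value (vertical axis) of the 8 probe sets in each of the 6 arrays, with alopecic arrays in red, unaffected arrays in blue, a bar at each group mean and a grey band over the range of array medians. In every probe set the 3 alopecic arrays lie above the 3 unaffected arrays, and in Gm4951 and BC023105 the unaffected arrays lie near the array medians.

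Among the regulatory members, Igtp (probe set 1417141_at) varied least in alopecic skin. Its log2 values were 13.54, 13.11 and 13.06 in alopecic replicates 1, 2 and 3 and 8.60, 9.10 and 8.83 in unaffected replicates 1, 2 and 3. The lowest alopecic array lay 3.96 above the highest unaffected array. The means were 13.24 ± 0.27 and 8.84 ± 0.25 (SD, n = 3 each), a log2 difference of 4.40 (SE 0.20), or 21.1-fold. Igtp is known to reside at the endoplasmic reticulum and on lipid droplets.

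Irgm2 (1417793_at), a regulator found at the Golgi apparatus, had log2 values of 12.25, 11.97 and 11.35 in alopecic replicates 1, 2 and 3 and of 7.67, 7.67 and 7.90 in unaffected replicates 1, 2 and 3. The unaffected arrays lay within 0.23 of each other, the narrowest range of the 8 probe sets in that group, while the alopecic arrays spread over 0.90. The log2 difference was 4.11 (SE 0.25), or 17.2-fold. Irgm1 (1418825_at), known for its part in mouse resistance to mycobacteria and in autophagy, had log2 values of 11.93, 11.12 and 10.80 in alopecic replicates 1, 2 and 3. In unaffected replicates 1, 2 and 3 it had 7.59, 7.23 and 7.46. Its alopecic replicate 1 stood well above the other alopecic arrays, and the groups lay 3.21 apart at their nearest. The log2 difference was 3.85 (SE 0.30), or 14.5-fold.

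Iigp1, the best studied effector, had 2 probe sets. The brighter, 1419043_a_at, had log2 values of 13.42, 13.23 and 12.62 in alopecic replicates 1, 2 and 3 and of 8.56, 8.80 and 7.92 in unaffected replicates 1, 2 and 3. The log2 difference was 4.66 (SE 0.31), or 25.4-fold. The other, 1419042_at, had 13.16, 12.98 and 12.26 in alopecic and 7.83, 8.16 and 7.07 in unaffected replicates 1, 2 and 3, a log2 difference of 5.11 (SE 0.36), or 34.6-fold. In both, alopecic replicate 3 was the lowest alopecic array and unaffected replicate 3 the lowest unaffected array. The probe sets of this gene differed by 0.45 in their log2 difference, which shows how far a fold here depends on the probes.

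Ifi47 (1417292_at), a further effector, had log2 values of 12.39, 12.01 and 11.61 in alopecic replicates 1, 2 and 3. Unaffected replicates 1 and 2 stood close together at 8.09 and 8.13, and unaffected replicate 3 stood lower, at 7.14. The log2 difference was 4.22 (SE 0.34), or 18.6-fold, and the groups lay 3.48 apart at their nearest.

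The predicted genes lie with Iigp1 on chromosome 18, where BC023105, annotated as a pseudogene, follows Iigp1 directly. Gm4951 (1439831_at), for which RefSeq lists the IRG name Ifgga2, had log2 values of 10.18, 10.00 and 9.20 in alopecic replicates 1, 2 and 3 and of 6.50, 6.13 and 5.63 in unaffected replicates 1, 2 and 3. Its log2 difference was 3.71 (SE 0.34), or 13.1-fold. BC023105 (1425394_at) had 10.95, 10.30 and 9.38 in alopecic replicates 1, 2 and 3 and 5.51, 6.12 and 6.39 in unaffected replicates 1, 2 and 3. Its alopecic arrays spread over 1.58, the widest range of any member, and its log2 difference was 4.20 (SE 0.44), or 18.4-fold. The unaffected means of Gm4951 and BC023105, 6.09 ± 0.44 and 6.01 ± 0.45 (SD, n = 3 each), lay below the lowest array median of 6.11, so that these folds are not exact ratios and their rank among the members is not settled. Members of this family are similar in sequence, probe sequences were not used here, and how far a probe set also takes up RNA of a related gene was not tested.

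The size of the differences depended little on any 1 array, but the number of members past the threshold did. With each array left out in turn, the log2 difference stayed between 4.25 and 4.53 for Igtp, between 3.53 and 4.10 for Irgm1, between 3.91 and 4.36 for Irgm2 and between 4.41 and 4.90 for the brighter Iigp1 probe set. It stayed between 3.90 and 4.42 for Ifi47, between 3.48 and 4.01 for Gm4951 and between 3.83 and 4.62 for BC023105. In the limma test 4 of the 7 genes remained past the threshold without alopecic replicate 1, without alopecic replicate 3 or without unaffected replicate 3. Of all 18193 genes, 33, 17 and 39 passed in these fits, in that order. Without alopecic replicate 2, unaffected replicate 1 or unaffected replicate 2 only Igtp of the 7 passed, where 14, 7 and 4 of all genes did. Igtp passed in each of the 6 fits with an array left out. Because this contrast chose the members, nothing is read from these counts. When all 34945 single-symbol probe sets were tested, 7 of the 8 member probe sets passed, the exception being BC023105.

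**Figure D2:**
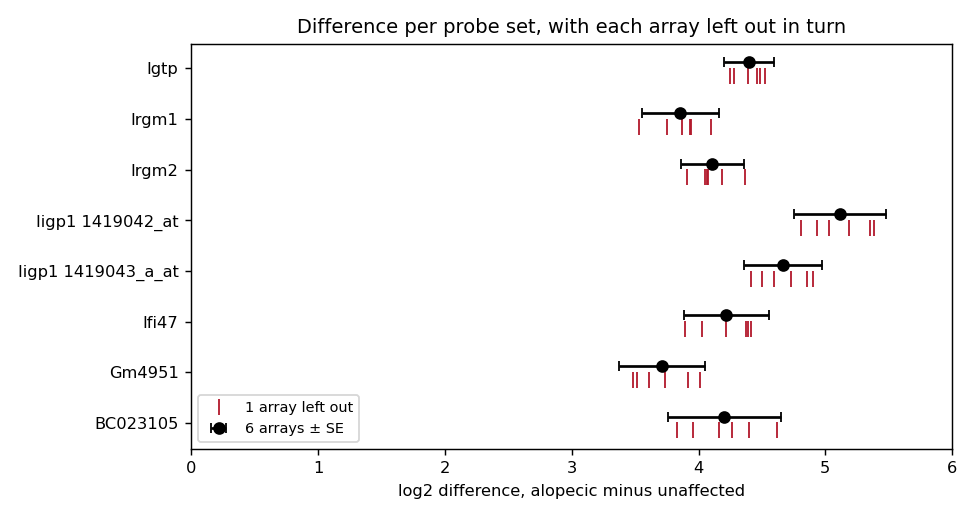
Log2 difference between alopecic and unaffected skin (horizontal axis) for each probe set, with the SE of the limma fit as error bar and a red tick for the value with each of the 6 arrays left out. The 6-array values run from 3.71 for Gm4951 to 5.11 for an Iigp1 probe set, and no tick falls below 3.48.

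Among the alopecic arrays the members varied alike. In all 8 probe sets, and so in all 7 genes, alopecic replicate 1 was the highest and alopecic replicate 3 the lowest alopecic array. Of all genes, 16.6% had this order. Among the unaffected arrays the members had no common order. In unaffected replicate 3 the log2 value of Ifi47 minus the mean of unaffected replicates 1 and 2 was -0.97, that of Iigp1 was -0.76 and that of Gm4951 was -0.69. On the same scale Igtp, Irgm1 and Irgm2 stood at -0.02, 0.05 and 0.23, and BC023105 stood at 0.57. Unaffected replicate 3 was the lowest unaffected array for 3 of the 7 members, Ifi47, Iigp1 and Gm4951, against 41.6% of all genes, and no split between effectors and regulators was tested. Across all genes the same quantity had a median of -0.01, with 10% of genes below -0.85 and 10% above 0.72. Without unaffected replicate 3 the log2 difference between the groups was 3.90 for Ifi47, 4.41 for Iigp1 and 3.48 for Gm4951, and 4.39 for Igtp, 3.87 for Irgm1, 4.19 for Irgm2 and 4.40 for BC023105.

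**Figure D3:**
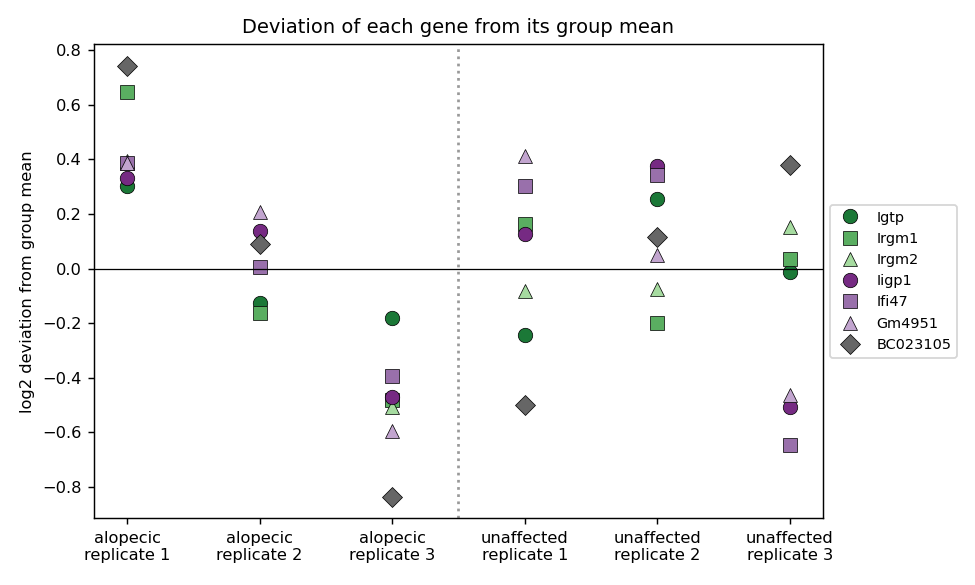
Deviation of each gene's log2 value from its group mean (vertical axis) in each of the 6 arrays. All 7 genes lie above their mean in alopecic replicate 1 and below it in alopecic replicate 3, and in unaffected replicate 3 Ifi47, Iigp1 and Gm4951 lie low at -0.65, -0.51 and -0.46 while the other genes lie between -0.01 and 0.38.

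Unaffected replicate 3 also stood apart in its hair genes. The mean log2 level of 11 hair shaft keratins was 5.98 there, against 11.8 and 12.9 in unaffected replicates 1 and 2 and 10.05 to 10.7 in the alopecic arrays. The 9 measured keratinocyte markers had mean log2 levels between 12.4 and 13.1 in the alopecic and between 12.4 and 13.0 in the unaffected arrays. None of the 9 passed the limma test (2 had an unadjusted p under 0.05 as higher and 1 as lower, against 4.8% and 2.35% of all genes). Keratinocyte transcripts were thus abundant on every array, as the label of skin requires.

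Few other genes of the family could be measured. The list of further IRG genes held 14 names, among them Ifgga1 and Ifgga2, which RefSeq gives as other names of Iigp1 and Gm4951. Apart from members, 3 genes of the list had a single-symbol probe set. None of these 3 passed the limma test over all genes (1 had an unadjusted p under 0.05, as higher). Gm12185, which RefSeq also names Irgb2b1 and which lies in the chromosome 11 cluster between Irgm1 and Ifi47, had log2 values of 7.80, 7.30 and 7.09 in alopecic and 6.15, 6.53 and 6.39 in unaffected replicates 1, 2 and 3. In unaffected replicate 3 it stood 0.05 above the mean of unaffected replicates 1 and 2. The groups did not overlap, and the log2 difference was 1.04 (SE 0.22, limma adjusted p = 0.288). Irgc1, a family member known from mouse testis, was dim on every array and differed by 0.04 (SE 0.13, limma adjusted p = 0.957). Irgq, a divergent member, differed by -0.04 (SE 0.22, limma adjusted p = 0.977). Tgtp1, Tgtp2 and Gm12250, which encode further effectors, were not analysed here.

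Interferon gamma and a list of genes linked to its signalling, not only those that carry the signal, were examined next. Of 11 measured genes of interferon gamma signalling, 2 rose and 0 fell in the limma test, against 0.264% and 0.011% of all genes, while 7 had an unadjusted p under 0.05, all as higher, against 4.8% of all genes. The median log2 difference was 1.78, where that of all genes was -0.01. Ifng, the cytokine itself, had log2 values of 7.51, 6.76 and 6.69 in alopecic and 4.54, 4.86 and 4.86 in unaffected replicates 1, 2 and 3. Like the IRG genes it was highest in alopecic replicate 1. It rose by 2.24 (SE 0.25, limma adjusted p = 0.0494), or 4.71-fold from a dim signal. It passed without alopecic replicate 1 (adjusted p = 0.0475) and missed the threshold with any other array left out (adjusted p from 0.104 to 0.233).

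Irf1, a transcription factor that binds ISREs, rose by 2.93 (SE 0.15, limma adjusted p = 0.00607), or 7.61-fold. Its log2 values were 11.82, 11.61 and 11.60 in alopecic and 8.50, 8.84 and 8.90 in unaffected replicates 1, 2 and 3. The alopecic arrays lay within a narrow band, and the groups were far apart. Irf1 passed in 5 of the 6 fits with an array left out and missed without unaffected replicate 2 (adjusted p = 0.0679). The receptor chains Ifngr1 and Ifngr2 and the kinases Jak1 and Jak2, chosen after their values were seen, differed by -0.39 (SE 0.30), -0.07 (SE 0.23), -0.05 (SE 0.23) and 0.33 (SE 0.17) and did not pass. None of these was among the 7 genes of the list with an unadjusted p under 0.05 in the limma test. Nlrc5, Irf8, Stat2 and Irf9, also chosen after their values were seen, differed by 2.03, 2.32, 2.19 and 1.78 and missed the threshold (limma adjusted p of 0.0631, 0.0997, 0.146 and 0.0959).

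IRG proteins reach vacuoles with the help of the machinery that conjugates autophagy proteins such as LC3 and GABARAP to membranes. Of 15 measured genes of this machinery and of ubiquitin-linked factors at the vacuole, none passed the limma test, and 1 had an unadjusted p under 0.05, as higher. The median log2 difference was -0.03. The brightest members were Map1lc3a at -0.01 (SE 0.17), Map1lc3b at -0.24 (SE 0.18), Gabarap at -0.29 (SE 0.16) and Atg3, an enzyme that attaches these proteins to lipid, at -0.04 (SE 0.14). Each of these had a limma adjusted p of at least 0.814. The gene with the unadjusted p under 0.05 was the ubiquitin ligase Trim21, itself an interferon-responsive gene and chosen after its values were seen, which differed by 1.59 (SE 0.23, limma adjusted p = 0.0959).

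**Figure D4:**
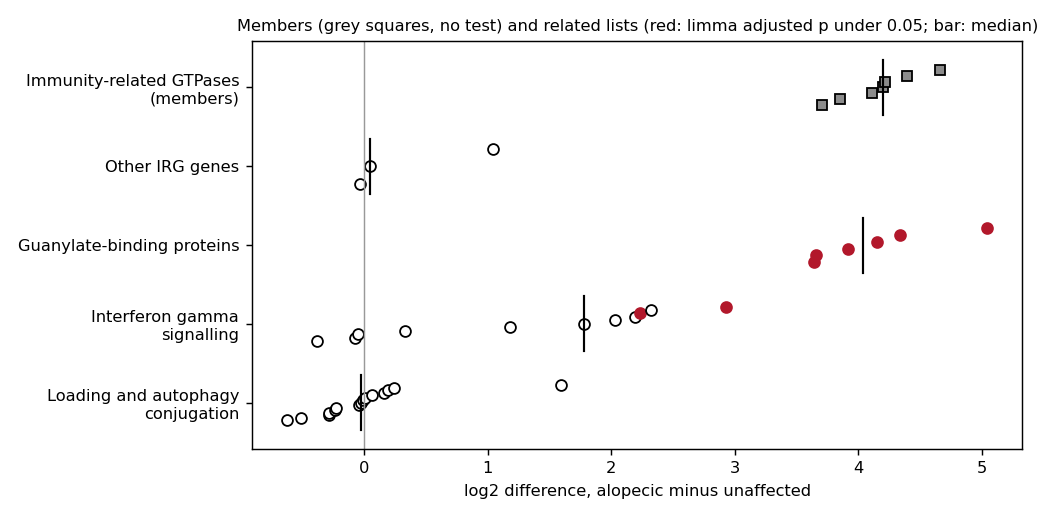
Log2 difference between alopecic and unaffected skin (horizontal axis) for the 7 IRG genes as grey squares and for the genes of 4 related lists as circles, red where the limma adjusted p was under 0.05, with a bar at each median. The 7 IRG genes and 6 guanylate-binding proteins lie between 3.65 and 5.05, while the loading and autophagy genes lie between -0.63 and 1.59.

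Guanylate-binding proteins (GBPs), larger GTPases that interferon gamma also induces and that act on the same vacuoles, gave the nearest comparison. All 6 measured Gbp genes rose (limma adjusted p from 0.00342 to 0.0132), with log2 differences from 3.65 for Gbp7 to 5.05 for Gbp8 and a median of 4.04, beside 4.20 for the IRG genes. The GBP genes were listed with their rise already known. The medians were not compared by a test. Gbp2, Gbp2b, Gbp3, Gbp6 and Gbp7 had the same order of alopecic arrays as the IRG genes, and Gbp8 did not. In Gbp3 alopecic replicates 2 and 3 were nearly level. Without unaffected replicate 1 or without unaffected replicate 2, 3 of the 6 passed. In unaffected replicate 3 the same quantity ran from -0.43 for Gbp2b to 0.25 for Gbp3 among the GBP genes.

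The genes whose values across the 6 arrays were most like the mean of the 7 IRG genes were sought among 1022 other genes with an SD over the arrays of at least 1. By Pearson correlation over 6 arrays, which share the contrast between the groups, they were Psmb10 (r = 0.9995), Gbp7 (0.9993), Parp14 (0.9984), Oasl2 (0.9977), Gbp6 (0.9973) and Gbp2 (0.9970). This choice favours genes that differ between the groups, so their p-values below are a description and no independent test. Psmb10, an immunoproteasome subunit, had log2 values of 11.12, 10.97 and 10.58 in alopecic and 8.59, 8.58 and 8.48 in unaffected replicates 1, 2 and 3. It followed the order of the IRG genes among the alopecic arrays at a smaller log2 difference, 2.34 (SE 0.17, limma adjusted p = 0.0130). Parp14, a mono-ADP-ribosyltransferase, had 11.22, 10.70 and 10.53 in alopecic and 8.05, 8.01 and 7.92 in unaffected replicates 1, 2 and 3, a log2 difference of 2.82 (SE 0.20, limma adjusted p = 0.0130). With the mean of its probe sets in place of the brightest, that of Parp14 was 1.83 (limma adjusted p = 0.103). Oasl2, of the oligoadenylate synthetase family, rose by 4.53 (SE 0.26, limma adjusted p = 0.00773). Psmb10 and Parp14 missed the threshold without alopecic replicate 2, unaffected replicate 1 or unaffected replicate 2 (adjusted p from 0.0863 to 0.0903), and Oasl2 without either of these unaffected arrays (0.0584 and 0.0769). Between members, r over the 6 arrays ran from 0.963, for Ifi47 with BC023105, to 0.998, for Iigp1 with Ifi47. These r contain the difference between the groups, on which the members were selected. They do not show how far members vary together within a group.

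Markers of lymphocytes were examined beside the IRG genes. In bulk skin, more cells of a type and more RNA per cell cannot be told apart. The mean log2 level of 14 measured T and NK cell markers was 8.18, 7.18 and 7.18 in alopecic replicates 1, 2 and 3 and lay between 6.10 and 6.22 in unaffected skin. In 12 of the 14 the alopecic arrays all lay above the unaffected arrays, against 6.93% of all genes, and Cd4 lay below. None of the 14 passed the limma test over all genes, 11 had an unadjusted p under 0.05 as higher, against 4.8% of all genes, and the median log2 difference was 1.36. Without alopecic replicate 1, 1 of the 14 passed. Over the 14 the log2 difference ran from -0.16 for Cd4 to 4.44 for Gzmb. The defining markers Cd3e and Cd8a, chosen after their values were seen, differed by 0.52 (SE 0.15) and 1.76 (SE 0.36). Cd3d, Cd3g and Cd247, also chosen after their values were seen, differed by 1.80, 1.64 and 0.18. The NK receptor Ncr1 and the T cell protein Cd5 lay below the lowest array median on all 6 arrays. The mean over the 7 IRG genes was 12.1, 11.7 and 11.1 in alopecic replicates 1, 2 and 3. Whether the IRG level followed the lymphocyte markers from array to array was not tested.

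The 12 macrophage and monocyte markers had mean log2 levels of 9.04, 7.64 and 8.49 in alopecic and 8.07, 8.53 and 7.34 in unaffected replicates 1, 2 and 3. These groups overlapped, and none of the 12 passed the limma test (1 had an unadjusted p under 0.05, as higher). The 8 fibroblast and 7 endothelial markers had medians of -0.02 and -0.21, and none passed (for fibroblasts and endothelium, 0 and 1 had an unadjusted p under 0.05). The part of any of these cell types in the IRG difference was not tested.

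**Figure D5:**
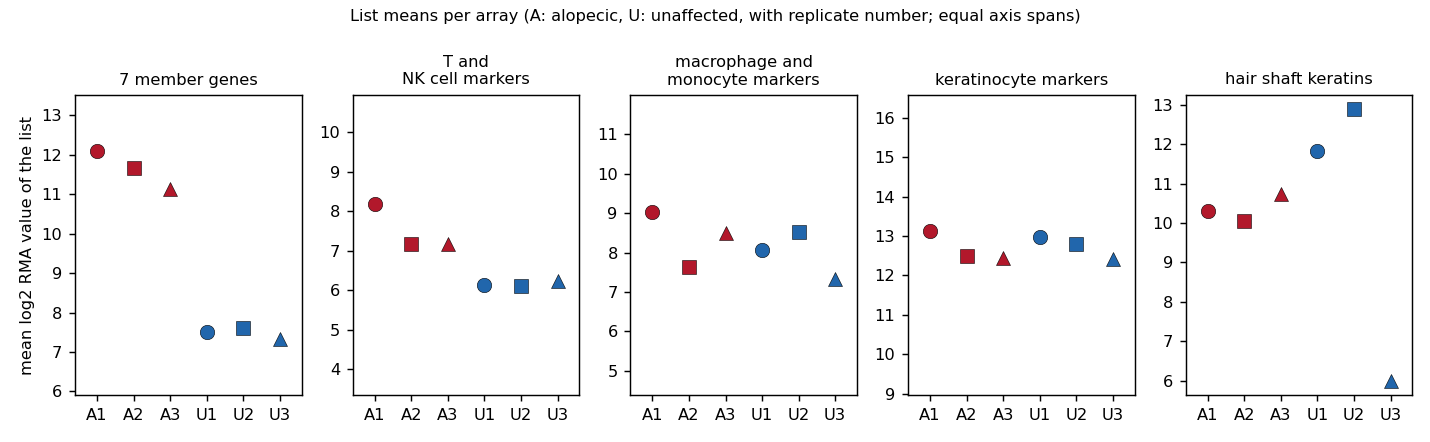
Mean log2 RMA value (vertical axes, with equal spans) of the 7 IRG genes and of 4 marker lists in alopecic arrays (A1 to A3, red) and unaffected arrays (U1 to U3, blue). The IRG genes and the T and NK cell markers are higher in the 3 alopecic arrays than in the 3 unaffected arrays, the macrophage and keratinocyte markers overlap between groups, and the hair shaft keratins are lowest in unaffected replicate 3, at 5.98.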

How the data were processed

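Total RNA of skin from 3 alopecic and 3 unaffected C3H/HeJ mice was hybridised to 1 array each, per the labels. The authors deposited log2 values made with RMA, per the submitters' processing notes. Those notes name no version of RMA. The values ran from 3.07 to 14.9, with array medians from 6.11 to 6.17. Arrays carry no read depth, so that their number limits the precision.

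Of 45101 probe sets, 34945 had 1 gene symbol in the platform's annotation, 932 had several, 9160 had none and 64 were controls. For 34741 of those with 1 symbol the gene ID was found in RefSeq, and the RefSeq symbol was used. Each of 18193 genes was represented by its brightest probe set. limma 3.58.1 in R 4.3.3 compared the groups over all genes, with Benjamini-Hochberg adjustment and a threshold of 0.05. SEs of members come from the same fit over 34945 probe sets. The 7 genes and all lists were chosen with earlier results of these data known. Named were all members, genes of the IRG, signalling, loading and GBP lists past the threshold, otherwise up to 4 per list with the highest mean, and the 6 genes most like the members. Other genes are marked as chosen after their values were seen. Alternatives were leaving out each array, a replicate block, quantile normalization, median centring, leaving out dim probe sets, averaging probe sets, an intensity trend with a robust prior, and array weights. Same-numbered arrays did not deviate together across genes (r of -0.13, -0.20 and -0.33), and the labels give the numbers no shared origin. One gene of the signalling list is not reported here.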

Additional observations from a re-analysis of the deposited data

How the results depend on the processing

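No IRG member and no gene named with an adjusted p under the threshold changed direction under the alternatives run. The mean log2 difference of the 7 IRG genes lay between 3.94 and 4.41 with an array left out, and at 3.91 with array weights. Counts past the limma threshold moved more. With an array left out, 4 to 39 of all genes passed (50 with all arrays), 1 to 4 of the 7 IRG genes, 0 to 2 of the signalling genes, 3 to 6 of the GBP genes and 0 to 1 of the T and NK cell markers. Fewer arrays leave fewer degrees of freedom. With the replicate number as a block, 0 genes passed in all (873 had an unadjusted p under 0.05), and so 0 IRG, 0 signalling and 0 GBP genes. The labels do not say that the numbers pair the mice. With array weights 139 genes passed, with 5 signalling genes and 1 T and NK cell marker, and the medians were 1.45 for signalling and -0.63 for keratinocyte markers. With the mean of all probe sets 1 signalling gene passed, as Ifng had an adjusted p of 0.0502. With dim probe sets left out the median of the other IRG genes was 0.50, over fewer genes. The endothelial median lay between -0.39 and 0.21 with an array left out, the last without unaffected replicate 3, and that of the hair shaft keratins between -2.06 and 1.54. For the counts that moved under array weights the cause was not tested.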
